A study of Homo sapiens with 4 samples.

Results

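Genes that carry out cell death downstream of p53 differ in what they do, and 10 of them were examined here for p53 binding: AEN, APAF1, STK17A, KLLN, PHLDA1, PHLDA3, CRADD, PHF17, SCIN and PERP. They were chosen by name as pro-apoptotic targets of p53, with earlier results of these data known. The annotation holds 20136 protein-coding genes, and PHF17 is called JADE1 there. A p53 peak was assigned to a gene when its summit, the base with the highest pileup of fragments, lay in the gene body or within 25 kb of it. The p53 response elements (REs) that the study lists for these genes were examined as well.

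Damaged or stressed cells stabilize p53, which enters chromatin as a tetramer and switches on genes for cell cycle arrest, repair or death. Each tetramer reads an RE built from a pair of half-sites, in which a CWWG core (W is A or T) is flanked by purines on its 5′ side and pyrimidines on its 3′ side. Cell death targets act at several levels, from the apoptosome that activates caspases in the cytosol to nucleases, kinases, regulators of AKT signaling and proteins of the cell surface. Lys120 of p53 contacts the RE from the major groove, and it can be acetylated in cells under stress.

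Chromatin was immunoprecipitated with an anti-p53 antibody and sequenced (ChIP-seq) from H1299, a human lung cancer line that is null for p53. Stable H1299 lines with the Tet repressor expressed either WT p53 or the Lys120-to-Arg mutant, K120R-p53, on addition of Tet. Untreated cells were compared with cells kept in Tet for 24 h, so that 4 conditions had 1 library each, and the labels give the dose as 1 µg per µl where the methods give it per ml. The p53 here came from an introduced transgene and no DNA-damaging agent is named, so the libraries show where expressed p53 bound and not a damage response. Depth was similar, with 33059650 tags for WT p53 without Tet and 33531162 with it, and 34151544 and 34857204 for K120R-p53. The libraries were not alike in fragment length as estimated by the peak caller. It was 170 bp for WT p53 with Tet, 68 bp for K120R-p53 with Tet, and 64 bp in both untreated libraries. Peaks after Tet treatment had a median length of 303 bp for WT p53 and 204 bp for K120R-p53. The part of these differences in peak calls and overlaps was not tested. With no replicates, no test compares conditions, and intervals on shares are exact Clopper-Pearson 95% intervals that cover counting error only.

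The study lists an RE of 20 bp for 8 of the 10 genes, and these sequences are shown first because the occupancy results are read against them. Each is printed 5′ to 3′ as listed, with GRCh37 coordinates and the strand on which the reference holds it. Capitals mark the core-adjacent positions, that is the bases directly outside each core, which are numbers 3, 8, 13 and 18 of the RE. For PHLDA3 and PERP, no listed RE was used.
AEN RE (chr15:89164537-89164556, plus strand): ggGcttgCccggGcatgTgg
APAF1 RE (chr12:99038330-99038349, plus strand): caGcaggCtcagGcacgTtc
STK17A RE (chr7:43617244-43617263, plus strand): ggGcatgCtcagGcaagTcc
KLLN RE (chr10:89603023-89603042, minus strand): agAcatgCctagAcaagTtc
PHLDA1 RE (chr12:76409128-76409147, minus strand): agGcatgTactaAcatgCcc
CRADD RE (chr12:94019098-94019117, plus strand): gtGcatgTcttcActtgTtt
PHF17 RE (chr4:129607455-129607474, minus strand): gaActtgCacagGggagCtt
SCIN RE (chr7:12597232-12597251, plus strand): tgGcatgTctggGcatgTaa

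The REs of STK17A and KLLN fit the consensus at every base. AEN and PHLDA1 have 2 mismatches, all outside the cores, and APAF1, CRADD, PHF17 and SCIN have 3. Both cores of the APAF1 RE are broken by 1 base each, the 3′ core of the PHF17 RE is broken by 2, and the other 6 REs have intact cores. At the core-adjacent positions, the REs of AEN, APAF1, STK17A and PHF17 hold 3 G/C bps, those of PHLDA1 and SCIN hold 2, and those of KLLN and CRADD hold 1. In all, 18 of these 32 bases are G or C (56.2%), compared with 45.4% in the 1334 listed REs of the whole study with a WT peak in Tet-treated cells.

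The REs with 3 G/C bps share more than that number. AEN, APAF1 and STK17A read G, C, G and T in this order at the 4 positions, and PHF17 reads the same when its other strand is taken. This arrangement was chosen after the sequences were seen. It occurs in 93 of the 1334 listed REs (6.97%), whereas 289 of the 1334 hold 3 G/C bps in any arrangement. Of the 8 REs, 4 fall into this class, with PHF17 placed by its listed RE. Of the cores, a CATG is present at least once in the REs of AEN, STK17A, KLLN, PHLDA1, CRADD and SCIN, in both cores at PHLDA1 and SCIN, and in neither core at APAF1 and PHF17. Among the 1334 listed REs, 79.7% have at least 1 CATG core.

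After induction with Tet, WT p53 occupied 7 of the 10 genes, namely AEN, APAF1, STK17A, KLLN, PHLDA1, PHLDA3 and SCIN. Over all protein-coding genes, 19.1% had a WT peak in the same window. The study drew its listed REs from WT binding in these same data, and 8 of the 10 genes have one. The 10 genes were thus not independent of the WT list, and their count is no test against that share. The same holds for the counts of these genes given below for gene starts, for untreated cells and for K120R-p53. The 7 genes had 8 peaks, with a pair at KLLN. Their median fold enrichment, the ratio of pileup to the background that the input predicts there, was 19.7, against 7.64 for the whole list of 4326 peaks. Most of the 8 peaks lie at listed REs, and the 1334 listed REs with a WT peak had a median of 13.7. The contrast with the whole list is thus no test either. It also depended on which peaks were counted, because the median was 10.5 for peaks within 10 kb of the genes and 7.61 for those within 5 kb of a gene start. Without the peaks also present in untreated cells, it was 7.61 as well, against 7.11 for the whole list. Within 50 kb of the genes, the median was 17.8. At a minimum -log10 q of 5 or 10, or a fold enrichment of at least 5, it was 23.5. The whole list then had 8.25, 10.2 and 8.92. Peaks with a summit within 5 kb of a gene start were found at 4 of the 10 genes, AEN, APAF1, KLLN and PHLDA3, compared with 2.93% of all protein-coding genes. CRADD, PHF17 and PERP had no peak within the window in any of the 4 libraries.

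**Figure D1:**
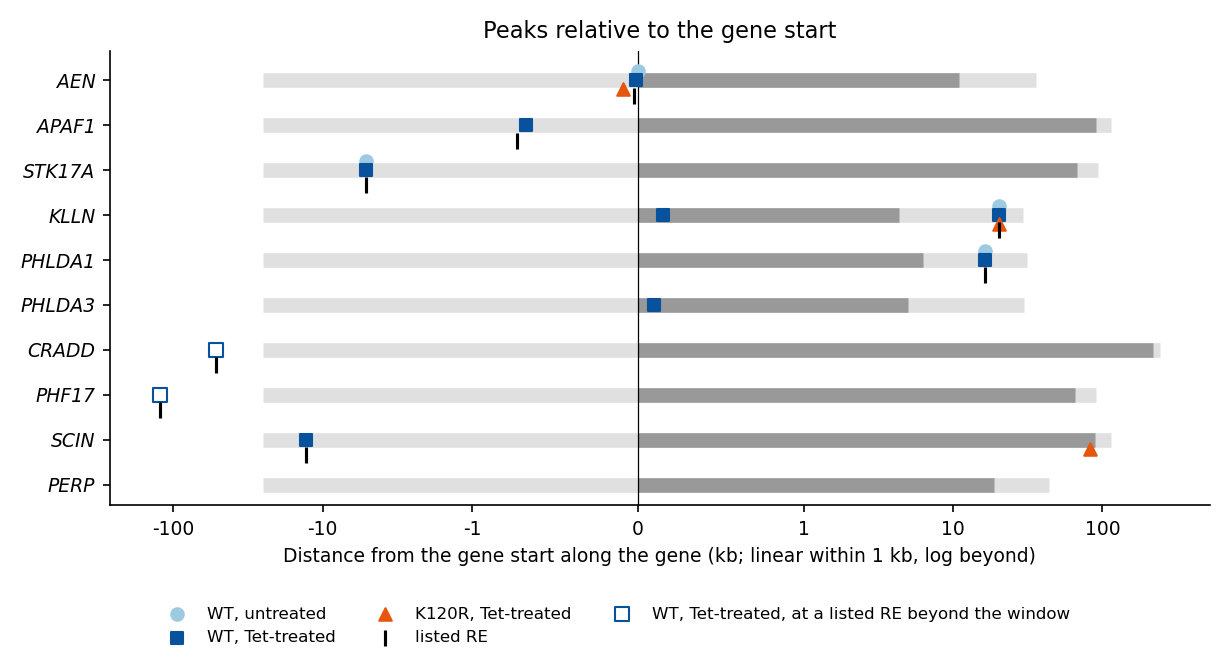
Peaks and listed REs of the 10 genes by distance in kb from the gene start, with the gene body in dark gray and the 25 kb on either side in light gray. Filled symbols are peaks of each library, black ticks are listed REs, and open squares are WT peaks at the listed REs of CRADD and PHF17, which lie 52050 and 123463 bp from the gene.

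AEN, a nuclease that degrades DNA during apoptosis, had its peak directly on the gene start. The WT peak of Tet-treated cells (chr15:89164316-89164969) had its summit 13 bp upstream of the start and 8.5 bp from the centre of the RE. Its fold enrichment of 25.4 placed it at percentile 93.5 of the list, and its -log10 q of 208 was the largest among the 8 peaks. ISG20, which encodes a related exonuclease, begins 14346 bp from the same summit, so this peak counts for both genes.

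APAF1, the scaffold of the apoptosome that assembles when cytochrome c leaves mitochondria, had a WT peak of fold enrichment 10.5 (percentile 68.1, chr12:99038194-99038602). Its summit lay 677 bp upstream of APAF1 and 500 bp inside the divergent gene IKBIP, itself a pro-apoptotic p53 target, and the listed RE falls in coding sequence of IKBIP. Both genes start close to this 1 peak. CRADD is the adaptor that couples caspase-2 to PIDD1 in the PIDDosome. Its listed RE lies far upstream, under a WT peak 52050 bp from the gene. The fold enrichment of 5.96 there (percentile 32.1) was the lowest value among the 8 listed REs.

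STK17A and PHLDA1 had higher values than APAF1 and CRADD. STK17A, a serine/threonine kinase of the death-associated protein kinase family, had a WT peak with a fold enrichment of 17.8 (percentile 86.6, chr7:43617077-43617509). This peak lay 5106 bp upstream of the start, and its summit was 2.5 bp from the centre of the RE. PHLDA1, a protein with a pleckstrin homology-like domain, had a WT peak with a fold enrichment of 21.6 (percentile 91.0, chr12:76408888-76409344). The PHLDA1 peak lay beyond the 3′ end of the gene, 10111 bp from it.

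PHLDA3 competes with AKT for membrane lipids and so lowers AKT signaling. Its only peak (chr1:201438112-201438408) had a fold enrichment of 4.69, at percentile 15, with the summit 99 bp inside the gene in the 5′ UTR. The -log10 q of 4.47 made it one of 2 WT peaks of the 10 genes after Tet treatment that fell below a -log10 q of 5.

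KLLN, a nuclear DNA-binding protein that can arrest S phase and trigger apoptosis, had 2 WT peaks. The larger one (chr10:89602699-89603265) had a fold enrichment of 34.4, the highest of the 8, at percentile 96.7. It lay 15870 bp beyond the 3′ end of KLLN in an intron of the noncoding RNA CFL1P1. The gene start nearest to its summit, at 1927 bp, was that of ATAD1, an ATPase of the mitochondrial outer membrane, and not that of KLLN. A small peak had its summit 154 bp inside KLLN, in the 5′ UTR. Its fold enrichment was 3.60 (percentile 3.72) and its -log10 q was 3.76. Of the 2 KLLN peaks, the one at the listed RE was thus the one farther from the gene.

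PHF17 is a PHD finger protein that brings the HBO1 acetyltransferase to histone H4, and SCIN is a calcium-dependent protein of the gelsolin family that severs actin filaments. The SCIN peak (chr7:12596934-12597486) had a fold enrichment of 30.5 (percentile 95.4) and lay 12952 bp upstream of the gene. For PHF17, the listed RE lies under a WT peak 123463 bp upstream of the gene, with a fold enrichment of 18.2 (percentile 87.1, chr4:129607204-129607628). No annotated gene spans that summit, and the nearest start of a protein-coding gene is that of PHF17 itself. PERP, a tetraspan membrane protein of desmosomes, had its nearest WT peak 53266 bp from the gene, with a fold enrichment of 4.12 (percentile 8.19).

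The WT peak farthest from its gene inside the 25 kb limit was the distal KLLN peak at 15870 bp.

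In untreated cells, WT p53 already occupied 4 of the 10 genes, AEN, STK17A, KLLN and PHLDA1, compared with 2.60% of all protein-coding genes. All of these untreated peaks lie at listed REs, which were drawn from WT binding, so this count is no test against that share. The untreated list held only 488 peaks, and its fold enrichments are not on the scale of the Tet-treated list. AEN stood far above the others, with a fold enrichment of 27.2 that was rank 17 of the list (percentile 96.7). Values at the other genes were 5.44 for STK17A (percentile 24.2), 5.75 for KLLN (29.4) and 6.58 for PHLDA1 (40.5). At a minimum -log10 q of 10, AEN was the only one of the 4 that kept its untreated peak, beside 1.20% of all protein-coding genes. APAF1, PHLDA3, CRADD, PHF17, SCIN and PERP had none, although the SCIN peak of Tet-treated cells had a larger fold enrichment than that of AEN. Of the 8 WT peaks of Tet-treated cells, 4 overlapped a peak of untreated cells, against 9.27% of all WT peaks. Those 4 were among the 5 peaks of these genes in the highest of 5 equal bins of the WT list by fold enrichment, where 39.4% of all peaks (36.1 to 42.8%) overlapped one. Among the REs, 4 of 8 had an untreated WT peak, compared with 23.8% of the listed REs.

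**Figure D2:**
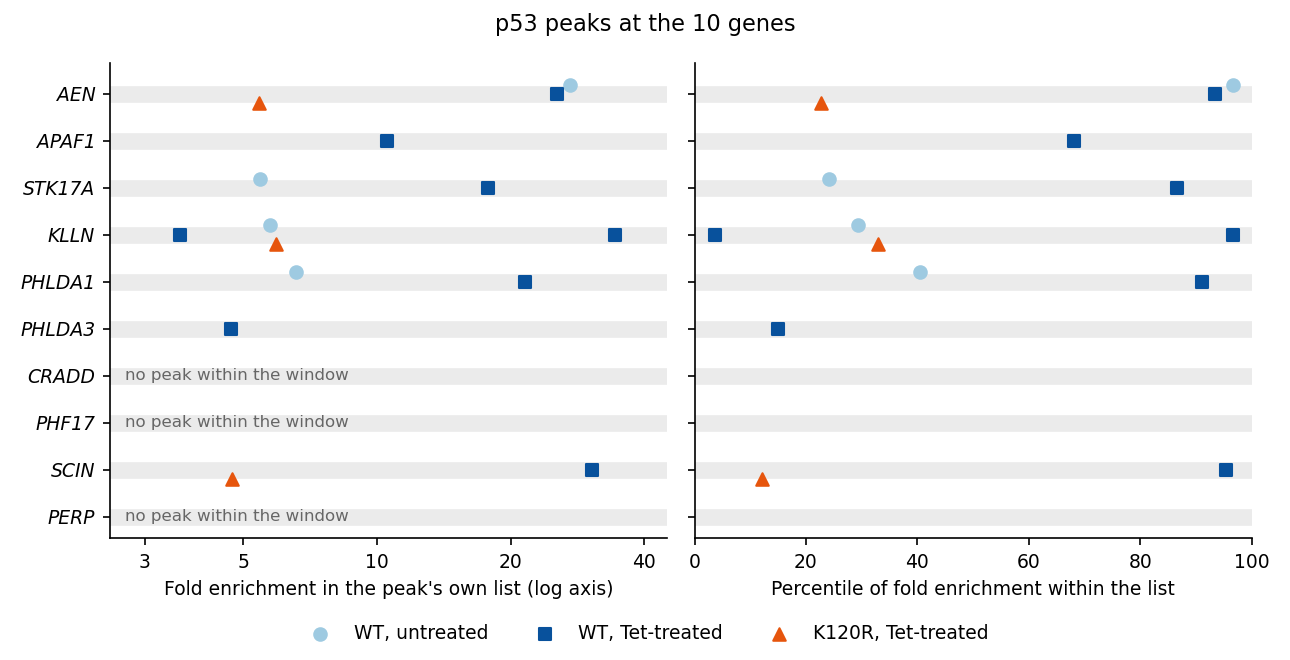
Fold enrichment of each peak in its own list (left, log axis) and its percentile within that list (right), for the libraries with a peak at any of the 10 genes. The 5 largest WT peaks after Tet treatment lie at or above percentile 86.6 of theirs, and the 3 K120R peaks lie at or below percentile 32.8 of their own list.

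K120R-p53 in Tet-treated cells had a peak at 3 of the 10 genes, AEN, KLLN and SCIN, beside 9.48% of all protein-coding genes. In untreated cells it had none at the 10 genes, in a list of 12 peaks that reached 0.0348% of genes. All 3 peaks of Tet-treated cells were low in their list. KLLN had a fold enrichment of 5.91 (percentile 32.8, chr10:89602906-89603016), AEN had 5.42 (percentile 22.7, chr15:89164438-89164645) and SCIN had 4.70 (percentile 12.1, chr7:12693332-12693462). Their -log10 q values of 4.94, 4.23 and 2.04 were all under 5, so that none of the 10 genes kept a K120R peak at that threshold. Over all genes, 6.66% did.

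The K120R peak of SCIN was unrelated to the WT peak of that gene. Its summit lay 83150 bp downstream of the start, in the UTR of an annotated SCIN transcript, and no WT peak overlapped it. The peak upstream of SCIN, the one over the RE, had no K120R counterpart even though its WT fold enrichment was at percentile 95.4. STK17A, PHLDA1, APAF1 and PHLDA3, and the REs of CRADD and PHF17, also had WT peaks without a K120R peak. At STK17A and PHLDA1, the nearest K120R peaks were 668541 and 529261 bp from the RE.

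By overlap of at least 1 bp, 2 of the 8 WT peaks, those at AEN and the distal KLLN site, were shared with K120R-p53 (25%, 3.19 to 65.1%). The same share over all WT peaks was 25.2% (24.0 to 26.6%), so the count at these genes lay at the level of the whole list. The heights of the peaks differed from the list, however. Over all WT peaks, overlap with K120R rose from 10.7% in the lowest bin of WT fold enrichment to 55.6% in the highest bin (52.2 to 59.0%). In the highest bin, where the AEN, STK17A, PHLDA1, SCIN and distal KLLN peaks lie, 2 of these 5 were shared. APAF1 was in the next lower bin, where 28.4% of peaks were shared, and PHLDA3 and the KLLN start were in the lowest. Both shared peaks were also present in untreated WT cells, as were the unshared peaks of STK17A and PHLDA1. In the whole list, 63.1% of WT peaks with an untreated counterpart were shared with K120R-p53, against 21.4% of those without one.

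**Figure D3:**
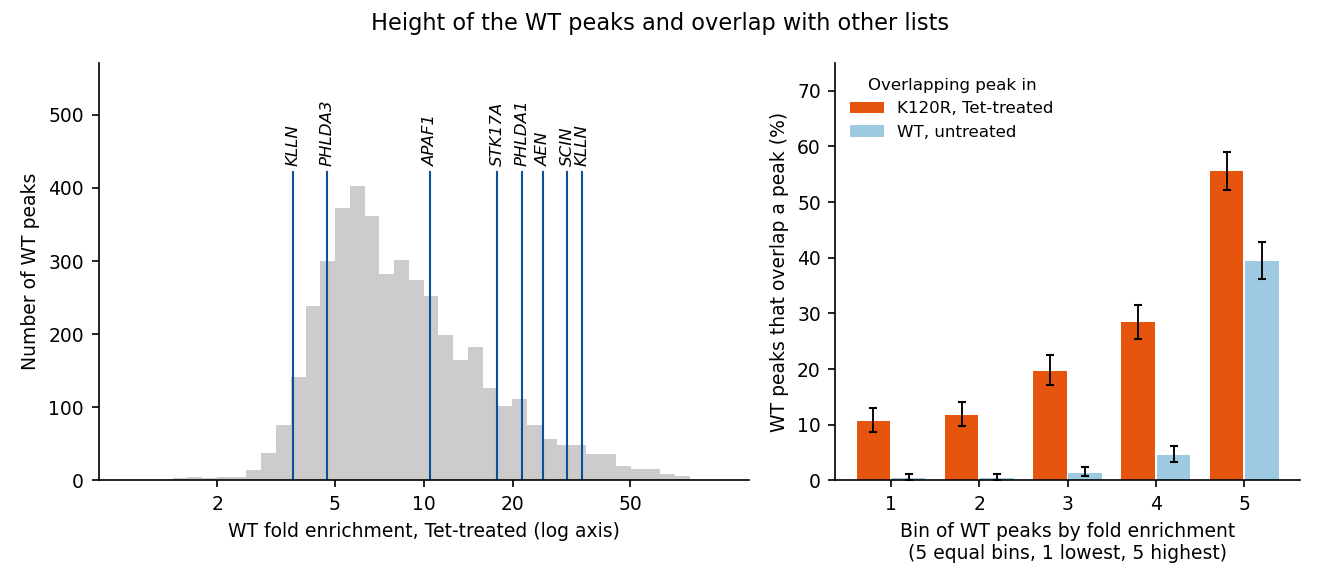
Left, distribution of fold enrichment over the 4326 WT peaks of Tet-treated cells (log axis), with the 8 peaks of the named genes as lines, of which 5 lie in the highest bin. Right, percentage of WT peaks in each of 5 equal bins that overlap a K120R peak of Tet-treated cells or a WT peak of untreated cells, with exact 95% intervals.

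Only the AEN RE was itself covered by a K120R peak, 1 of 8, whereas 40.6% of the listed REs with a WT peak in the whole study were. At KLLN, the K120R peak ended 7 bp short of the RE. Such near misses were rare, since only 8 of 793 listed REs without an overlapping K120R peak had one within 10 bp. Counting a K120R summit within 100 bp of the centre of the RE instead gave 2 of 8, AEN and KLLN, against 38.7% of the listed REs by the same rule.

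The REs were next compared with listed REs of the same base content next to the cores. Counted here from the listed sequences, 289 REs with a WT peak had 3 G/C bps and 63 had 4. The study gives fewer of both for its list, and the reason was not examined. STK17A and KLLN both match the consensus in full, but the STK17A RE has 3 G/C bps and the KLLN RE has 1. Of 45 listed REs that had a WT peak, 0 mismatches and 3 G/C bps, 8 had a K120R peak (17.8%), and of 34 with 0 mismatches and 1 G/C bp, 22 did (64.7%). The median WT fold enrichment of these classes also differed, 15.4 with 3 G/C bps and 30.2 with 1. STK17A, with no K120R peak, was like most of its class. The REs of CRADD and KLLN had no overlapping K120R peak in a class of 1 G/C bp in which 55.7% of REs (50.4 to 61.0%) had one. The WT peak at the CRADD RE was low for this class, with a fold enrichment of 5.96 against a median of 13.9. In its bin of WT fold enrichment, 11.8% of all WT peaks overlapped a K120R peak. AEN, in contrast, had a K120R peak in a class of 3 G/C bps in which 18.3% (14 to 23.3%) did. For REs that read G, C, G and T at the 4 positions on either strand, the class of AEN, APAF1, STK17A and PHF17, it was 17.2% (10.2 to 26.4%).

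The same order of classes was seen at large WT peaks. Among listed REs in the highest bin of WT fold enrichment, 75.9% of those with 1 G/C bp had a K120R peak (68.7 to 82.1%), and KLLN belongs here. For REs with 2 G/C bps, where PHLDA1 and SCIN belong, it was 49.4% (42.8 to 55.9%). With 3 G/C bps, as at AEN, STK17A and PHF17, it was 28.3% (20.7 to 37.0%).

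**Figure D4:**
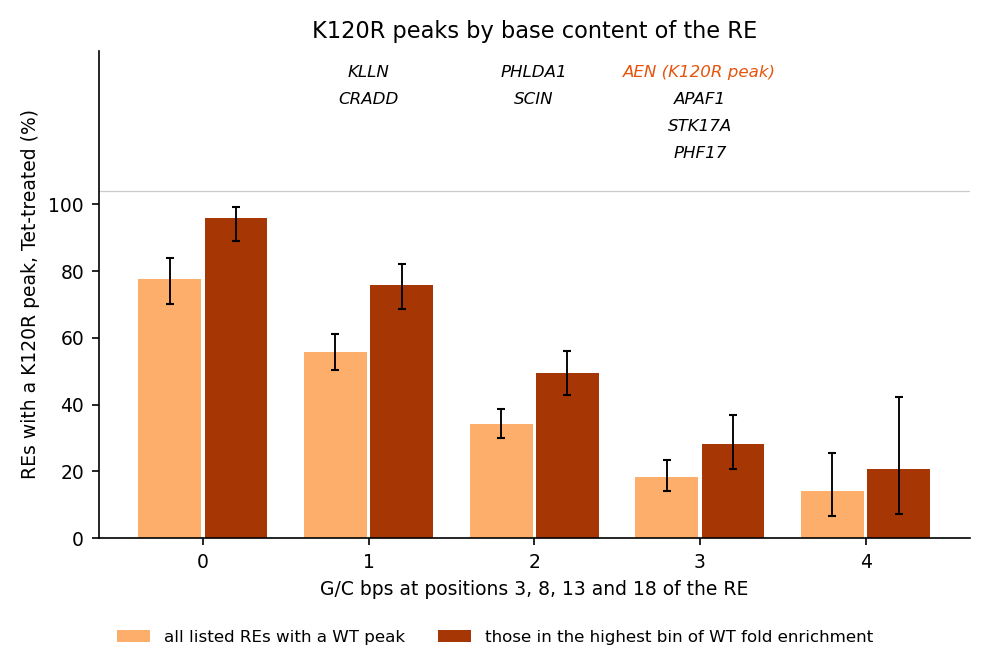
Percentage of listed REs with a WT peak that also have a K120R peak after Tet treatment, by the count of G/C bps next to the cores, for all of them and for those in the highest bin of WT fold enrichment (exact 95% intervals). Names above the bars place the 8 REs by their G/C number, and AEN, with 3 G/C bps, is the one covered by a K120R peak.

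Summits of WT peaks in Tet-treated cells lay close to the REs, at 2.5 bp for STK17A, 6.5 bp for CRADD, 8.5 bp for AEN, 9.5 bp for SCIN, 12.5 bp for KLLN and 21.5 bp for PHLDA1. The median over the listed REs was 12.5 bp. APAF1 at 51.5 bp and PHF17 at 72.5 bp were farther away, and 7.72% of the listed REs lay more than 50 bp from the summit. In the K120R library, the summit was 68.5 bp from the AEN RE. The median over all listed REs with a K120R peak was 24.5 bp, and 26.2% of them exceeded 50 bp. For KLLN, the nearest K120R summit was 91.5 bp from the RE. The KLLN RE lies outside that set because no K120R peak covers it, so its distance is not comparable with the median. Untreated WT cells placed the KLLN summit 71.5 bp from the RE, on the same side as K120R-p53, but the summits of AEN, STK17A and PHLDA1 at 20.5, 1.5 and 7.5 bp, against a median of 25.5 bp over the listed REs. Fragment length, as estimated by the peak caller, was 170 bp in the Tet-treated WT library but 64 bp in the untreated WT library and 68 bp in the Tet-treated K120R library. Its part in the summit positions was not tested.

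**Figure D5:**
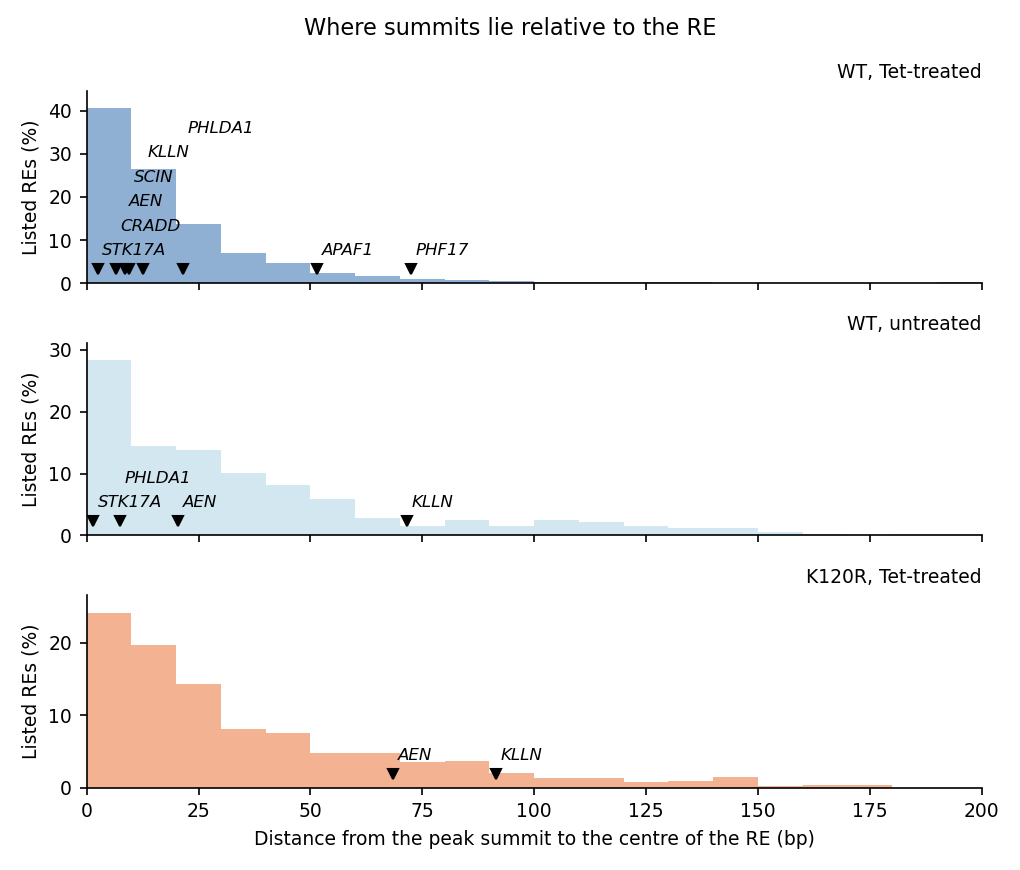
Distance in bp from the peak summit to the centre of the RE, as a percentage of listed REs with a peak in each library. Triangles are the REs of the named genes, with the nearest K120R summit shown for KLLN, and the K120R summits of AEN and KLLN lie 68.5 and 91.5 bp from the RE.

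The sequence between summit and RE is shown for the 2 genes with K120R and WT peaks at a shared place. Both are the plus strand of GRCh37, with the RE in capitals and a single capital at the base of the K120R summit. The AEN stretch ends at the last base before the gene.
AEN (chr15:89164458-89164567): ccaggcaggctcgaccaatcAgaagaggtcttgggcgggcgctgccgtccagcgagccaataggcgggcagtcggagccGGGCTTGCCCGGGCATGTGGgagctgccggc
KLLN (chr10:89602921-89603062): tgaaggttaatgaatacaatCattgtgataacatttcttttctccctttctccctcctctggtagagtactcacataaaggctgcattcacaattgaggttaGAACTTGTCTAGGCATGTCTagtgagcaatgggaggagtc
Within 100 bp of either K120R summit, no 20-bp window matched the consensus better than the RE. At AEN and at KLLN, it was also the only window with at most 3 mismatches.

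For PHF17, the listed RE was not the best match under its peak. A window with 0 mismatches and 2 G/C bps lies 6.5 bp from the WT summit, at chr4:129607389-129607408, against 72.5 bp for the listed RE with its 3 mismatches. The G/C counts and classes given for PHF17 in this report are those of the listed RE, and they would differ for this window. A further match with 0 mismatches has its half-sites separated by 1 bp (chr4:129607440-129607460) and reaches into the listed RE. The stretch below is the plus strand, with the window beside the summit and then the listed RE in capitals.
PHF17 (chr4:129607369-129607494): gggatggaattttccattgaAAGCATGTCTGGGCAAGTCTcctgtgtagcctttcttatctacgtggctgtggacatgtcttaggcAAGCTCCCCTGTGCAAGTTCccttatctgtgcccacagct

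At APAF1, the listed RE and 1 other window tied with 3 mismatches within 100 bp of the summit. A pair of half-sites 13 bp apart with 1 mismatch in all (chr12:99038474-99038506) lies 99 bp from the summit on the other side. No such spaced match with at most 1 mismatch was found near the summits of AEN, STK17A, KLLN, PHLDA1, PHLDA3, CRADD and SCIN.

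Peaks without a listed RE were searched for the 20-bp window with the fewest mismatches whose centre lay within 100 bp of the summit. The best windows at PHLDA3 and at the K120R peak of SCIN are printed on the strand of the gene, with the core-adjacent positions in capitals, since they show how far these peaks depart from the consensus.
PHLDA3 start (chr1:201438285-201438304, minus strand): gaAcatgTaaggGcacaTcc
SCIN K120R peak (chr7:12693350-12693369, plus strand): agCcaagTtcaaGtaagTta
The PHLDA3 window has 4 mismatches, 2 of them in the 3′ core. The window under the K120R peak of SCIN has 3 mismatches and lies 6.5 bp from that summit.

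The search of the consensus, a CWWG core between 3 purines and 3 pyrimidines and repeated without a spacer, reads the same on both strands. A window with at most 3 mismatches was found at 80.9% of all WT peaks of Tet-treated cells and at 5.28% of stretches of the same 219 bases centred 3000 bp to either side. Of the 8 WT peaks inside the 25 kb window, all except that of PHLDA3 had one. At most 2 mismatches were found at 53.5% of WT peaks and 0.636% of flanking stretches, and at the peaks of AEN, STK17A, PHLDA1 and both KLLN sites. A full match, present at 5.73% of WT peaks and 0% of flanking stretches, was found among the 8 at STK17A and the distal KLLN site, and outside the window at the PHF17 peak described above. With 4 mismatches, the PHLDA3 window is of a kind that 26.2% of flanking stretches also hold.

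RefSeq promoters, 250 bases before to 50 after a gene start on GRCh38.p14, were matched for 9 of the 10 genes, with PHLDA3 unmatched. Only the AEN promoter held a window with at most 3 mismatches, namely its RE with 2, which 0.649% of 35116 promoters equalled or exceeded. CRADD was next, with 4 mismatches in the best of its 3 promoters, which 26.0% of promoters equalled or exceeded. The best windows in the promoters of APAF1, STK17A, PHF17, PERP and SCIN had 5 mismatches, a level that 70.5% of all promoters reached. Those of KLLN and PHLDA1, whose REs lie beyond their 3′ ends, had 6.

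Partners and relatives of these genes were examined in the same way. Of 10 caspase partners, 1 had a WT peak and 1 had a K120R peak after Tet treatment, beside 19.1% and 9.48% of all protein-coding genes. Both peaks were at PIDD1, the platform that CRADD binds. PIDD1 had a WT fold enrichment of 20.4 (percentile 89.5) and a K120R fold enrichment of 6.75 (percentile 51.3) at the same place.

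Among 16 paralogs and relatives, 7 had a WT peak and 2 had a K120R peak, beside the 19.1% and 9.48% of all protein-coding genes. Of the 7, ISG20 had the AEN peak itself, so that 6 had peaks of their own. STK17B, the closest relative of STK17A, had an intragenic peak with a fold enrichment of 16.9, near the 17.8 of STK17A, and DAPK1 had one with 5.49. JADE3, a paralog of PHF17, had 11.1. The gelsolin family of SCIN was represented by GSN, with 12.2, and by SVIL, with 10.2 and 6.37. ISG20L2, a relative of AEN, had 5.43. The DAPK1 and GSN peaks lay 203118 and 114694 bp from the gene start, and the SVIL peaks 160294 and 292626 bp. Another gene's start was nearer at DAPK1, GSN and the smaller SVIL peak. At STK17B, JADE3, ISG20L2 and the larger SVIL peak, the nearest start was the gene's own. The window takes in the whole gene body, so long genes have more room for a peak. K120R-p53 shared 1 of the 8 WT peaks of this list, that of AEN, against 25.2% of all WT peaks, and the K120R peak near AVIL (fold enrichment 4.72) overlapped no WT peak.

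Of 16 other pro-apoptotic targets, 10 had a WT peak and 3 had a K120R peak, to be read against the same 19.1% and 9.48%. Their WT peaks had a median fold enrichment of 7.89, and the peak of IKBIP is that of APAF1. DAPK1 (5.49) and PIDD1 are among these 10 genes and were also counted in the lists above. After PIDD1, the largest values were those of EI24 (14), a protein of the endoplasmic reticulum, and TP53INP1 (11.8), a regulator of autophagy and stress responses. PLEKHF1 had 9.65, CYFIP2 had 6.66, CDIP1 had 5.94, and DRAM1, which acts in autophagy, had a pair with 7.89 and 5.72. TP53I3, an oxidoreductase, was the gene whose K120R peak stood highest in its list, at percentile 84.1, while its WT peak of 7.71 was at percentile 50.7. TP53INP1 was the only one of these 16 genes with an untreated WT peak, with a fold enrichment of 5.66 where AEN had 27.2, and over all protein-coding genes the share was 2.60%. The K120R peak assigned to PLEKHF1 lay 19246 bp from the gene and overlapped no WT peak, so that K120R-p53 shared 2 of their 11 WT peaks, those of TP53I3 and PIDD1, against 25.2% of all WT peaks.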

How the data were processed

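ChIP-seq of p53 was compared between 4 libraries (WT and K120R-p53, untreated or Tet-treated), grouped by the sample labels. Per the submitters' notes and methods, the authors aligned reads to GRCh37 with BWA and called peaks per library against input with MACS 2.1.1.20160309. Per the file headers, the q-value cutoff was 0.05, 1 tag was kept per position, and the larger of ChIP and input was scaled to the smaller. The deposited pileup is a signal height, the deposited fold enrichment is a ratio to the local background, and the authors' p-values and q-values were deposited on the -log10 scale. Heights were not set against each other across libraries; they were compared by percentile within a list, and lists by overlap of at least 1 bp.

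Genes came from GENCODE release 44 on GRCh37. RE sequences came from the source data of the study and were placed in the reference; no occupancy values of that source were used. Scripts used Python 3.11.15, numpy 2.4.6, pandas 2.3.3, scipy 1.17.1, pysam 0.24.0 and matplotlib 3.10.9, and were tested on simulated data. The lists give only regions past the cutoff, so weaker binding goes unseen; the lowest pileup listed was 11.62 for WT and 7.48 for K120R-p53 after Tet treatment. Fold enrichment bins, base arrangements and core counts were chosen after the data were seen. The members and gene lists were chosen with earlier results of these data known. Named genes were the 10 genes, genes with the start nearest to one of their peaks, and listed related genes with a peak after Tet treatment; CFL1P1 was named after the values were seen. Some of the genes and peaks examined are not reported here. Alternatives were other peak thresholds, windows, overlap rules and peak measures.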

Additional observations from a re-analysis of the deposited data

How the results depend on the processing

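Of 87 values computed under alternatives, 47 stayed within the interval of the main value, or within 1.5 times it for counts, and 40 did not. The interval of the median of the 10 genes, from order statistics, spans all 8 of its values, 3.60 to 34.4, so medians of 10.5 and 7.61 against 19.7 are among the 47. Of those not listed here, the count of genes with a WT peak after Tet treatment ranged from 5 to 9 around the main 7. No alternative gave any of the 10 genes a K120R peak in untreated cells. Alternatives with fewer peaks or narrower windows lower the counts by construction.

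At a minimum -log10 q of 5, no gene, WT peak or RE of the 10 genes kept a K120R peak (0 of each), against 33.9% of the listed REs. WT peaks were then at 18% and K120R peaks at 6.66% of protein-coding genes, 20.6% of all WT peaks were shared, and their median fold enrichment was 8.25. At a minimum of 10, the K120R counts were 0 again, against 23.9% of listed REs, and untreated WT peaks were at 1 gene, 1 WT peak and 1 RE, beside 1.20% of all genes, 6.19% of WT peaks and 12.8% of listed REs. The shares were 13.8%, 3.52% and 15%, and the median was 10.2. With a fold enrichment of at least 5, the shares of genes were 16% and 8.11%, and the median was 8.92.

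Within 10 kb, the median fold enrichment for the 10 genes was 10.5 in place of 19.7, 13.9% and 6.98% of genes had a WT or K120R peak, untreated WT peaks were at 2 of the 10 genes (1.81% of all genes) and 2 of their WT peaks, and 1 WT peak was shared with K120R. Within 50 kb, the shares of genes were 26.9% and 13.5%. Within 5 kb of a gene start, 4 of the 10 genes had a WT peak, 1 a K120R peak and 1 an untreated WT peak, beside 2.93%, 1.44% and 0.502% of all genes, with 1 WT peak shared with each list and a median of 7.61 for the 10 genes.

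Without WT peaks also present in untreated cells, 0 of the remaining 4 WT peaks of the 10 genes and 21.4% of all WT peaks were shared with K120R, and the medians were 7.61 for the 10 genes and 7.11 for all. By summits within 100 bp of the RE, 2 REs had a K120R peak, against 38.7% of the listed REs. Pileup in place of fold enrichment had medians of 88.6 for the peaks of the 10 genes and 32.0 for all.

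Peaks at listed REs at any distance were counted after seeing the data, and 1334 of all 1356 listed REs had a WT peak. No paired analysis was possible because each condition had 1 library.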

Other observations

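Beyond the 25 kb window and up to 200 kb from the genes, further WT peaks of Tet-treated cells were found. None of them overlapped a K120R peak, against 25.2% of all WT peaks that did. That share is not matched for height. The fold enrichments of these further peaks ran from 4.12 to 21.9, over bins in which 10.7% to 55.6% of all WT peaks were shared. Only 7 are described here, and SCIN (fold enrichment up to 15.7) and STK17A had others. APAF1 had a pair upstream, 59218 and 64657 bp from the gene, with fold enrichments of 21.9 (percentile 91.2) and 11.2. The start nearest to both was that of SLC25A3, which encodes the mitochondrial phosphate carrier, and the first of them was larger than the peak at the APAF1 start. PHLDA1 had a peak 96662 bp downstream with a fold enrichment of 11.4, and another 107491 bp upstream with 13.8. PHF17 had a smaller peak 128005 bp upstream (fold enrichment 7.33) near the one at its listed RE.

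A WT peak 54111 bp upstream of PHLDA3 had a fold enrichment of 8.28, against 4.69 at the PHLDA3 start, and its nearest start was that of CSRP1, a LIM domain protein. Near CRADD, a WT peak 86337 bp upstream had 5.44, with SOCS2, an inhibitor of cytokine signaling, as the nearest start. These genes and peaks were named after their values were seen.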
